A study of Rattus norvegicus with 6 samples.

Results

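The 10 genes described here carry out calcium handling downstream of the sodium pump: the store pumps Atp2a2 and Atp2a3, the plasma membrane pumps Atp2b1 and Atp2b4, the Golgi pump Atp2c1, the sodium-calcium exchanger Slc8a1, the store sensors Stim1 and Stim2, the entry channel Orai1 and the store release channel Itpr3. They were taken by symbol from a table of 17557 rows and 17030 symbols, and each of the 10 was found on 1 row. The table gives FPKM, fragment counts divided by transcript length and by the library's mapped fragments, of 1 messenger RNA library from each of 6 rats, labelled as tissue of PAIII tumors. PAIII is a transplantable line from a spontaneous prostate adenocarcinoma of the rat, here injected under the skin of the flank of 2-month-old Lobund-Wistar rats. Digitoxin, a cardiac glycoside, was given intraperitoneally at 0.03 mg/kg per day from day 10 to rats A1, A6 and A12, and vehicle to rats B5, B9 and B14 (n = 3 in each group). The composition of the vehicle is not stated for the controls. Tumors were taken on day 40, and RNA came from 10 punches of 1 mm made in sections of 300 microns. The sequenced animals were selected for low serum IL-6 and CINC-1 if treated and for high values if not, so they are not random draws from their groups. The comparison of the labelled groups asks what digitoxin did to mRNA levels in the tumor.

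Cardiac glycosides bind the sodium pump, which exports sodium from the cell. When the pump is blocked, sodium rises in the cell and the sodium-calcium exchanger removes less calcium, which is the textbook basis of their action on heart muscle. The store pumps, known as SERCA, then move calcium into the endoplasmic reticulum, and the plasma membrane pumps, known as PMCA, move it out of the cell. Inositol trisphosphate receptors release calcium from the store. STIM proteins sense an emptied store and open ORAI channels in the plasma membrane, which is called store-operated calcium entry.

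The libraries differed in tissue content. The summed FPKM of 12 lung markers was 144945 in A1, 254180 in A6, 76207 in B5 and 84574 in B9, but 930 in A12 and 1855 in B14. The list holds Scgb1a1, a gene of airway club cells, and Lyz2, also a macrophage gene. Without them the other 10 summed to 52090, 85707, 28113 and 36398 FPKM in A1, A6, B5 and B9, and to 40.9 FPKM in A12 and 62.7 FPKM in B14. The surfactant mRNA Sftpc was between 19188 and 63514 FPKM in A1, A6, B5 and B9, listed at 0 in B14 and 0.229 FPKM in A12. The pieces in A1, A6, B5 and B9 thus held lung mRNA in bulk. The paper describes its samples as primary tumors, punched in regions chosen as viable on stained sections. Whether the pieces with lung mRNA are flank tumor, tumor in lung or mixed is not known. Every level given for these pieces is that of the piece sequenced. Libraries A12 and B14 were the pair most alike (r = 0.985 across rows, which are not independent replicates), although their labels differ. Of the prostate genes, Hoxb13 was at most 0.0937 FPKM in any tumor and Pbsn was listed at 0 in all 6, while the epithelial Krt8 ran from 398 to 2095 FPKM. Whether all labels of the 6 tumors are right could not be settled. The 20 ways to name 3 of the 6 tumors as treated were ordered by correlation with the fold changes tabled with the study. The labelled assignment stood at place 11, and the closest exchanged A1 and B9. Each assignment has a mirror with the groups exchanged and the correlation reversed in sign. Place 11 is therefore the correlation smallest in size of any split, and it was not above 0. Some assignment must be closest, however, and the selection on serum went with the labels. The study's methods name Cuffdiff, and the tumors behind its tabled values are not stated, while it also describes a comparison of more tumors per group. Directions below hold for the groups as labelled, and the values of the 10 genes were also computed without A1 and B9 and without A12 and B14. The depth behind an FPKM is unknown, since reads were not analysed here.

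None of the 10 genes passed the test between the labelled groups. In limma's moderated test on log2(FPKM + 1), fitted on 10749 rows averaging 1 FPKM or more, all 10 genes were tested and 0 passed a Benjamini-Hochberg adjusted p of 0.05, as did 0 of all rows (0.0%), the smallest adjusted p being 0.926. At an unadjusted p under 0.05 there were 0 of the 10, against 36 of all rows (0.335%), and the smallest p among the 10 was 0.216. Without a variance trend there were again 0 of the 10. In no gene did the 3 digitoxin tumors lie wholly above or below the 3 vehicle tumors, against 4.16% of all rows. Of the 10 genes, 6 had a lower mean log2 level with digitoxin, against 64.9% of all rows. The median log2 fold change of the 10 was -0.088, beside -0.16 over all rows, and it ran from -0.20 to -0.065 with 1 tumor left out. Between tumors of the same replicate number, Atp2a2, Atp2b1 and Atp2c1 were lower with digitoxin in all 3 pairs and Orai1 higher in all 3, which makes 4 of the 10 genes with a single direction, beside 32.1% of all rows (22.4% lower and 9.68% higher). In bulk tissue, fewer cells of a type and less RNA per cell cannot be told apart.

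**Figure D1:**
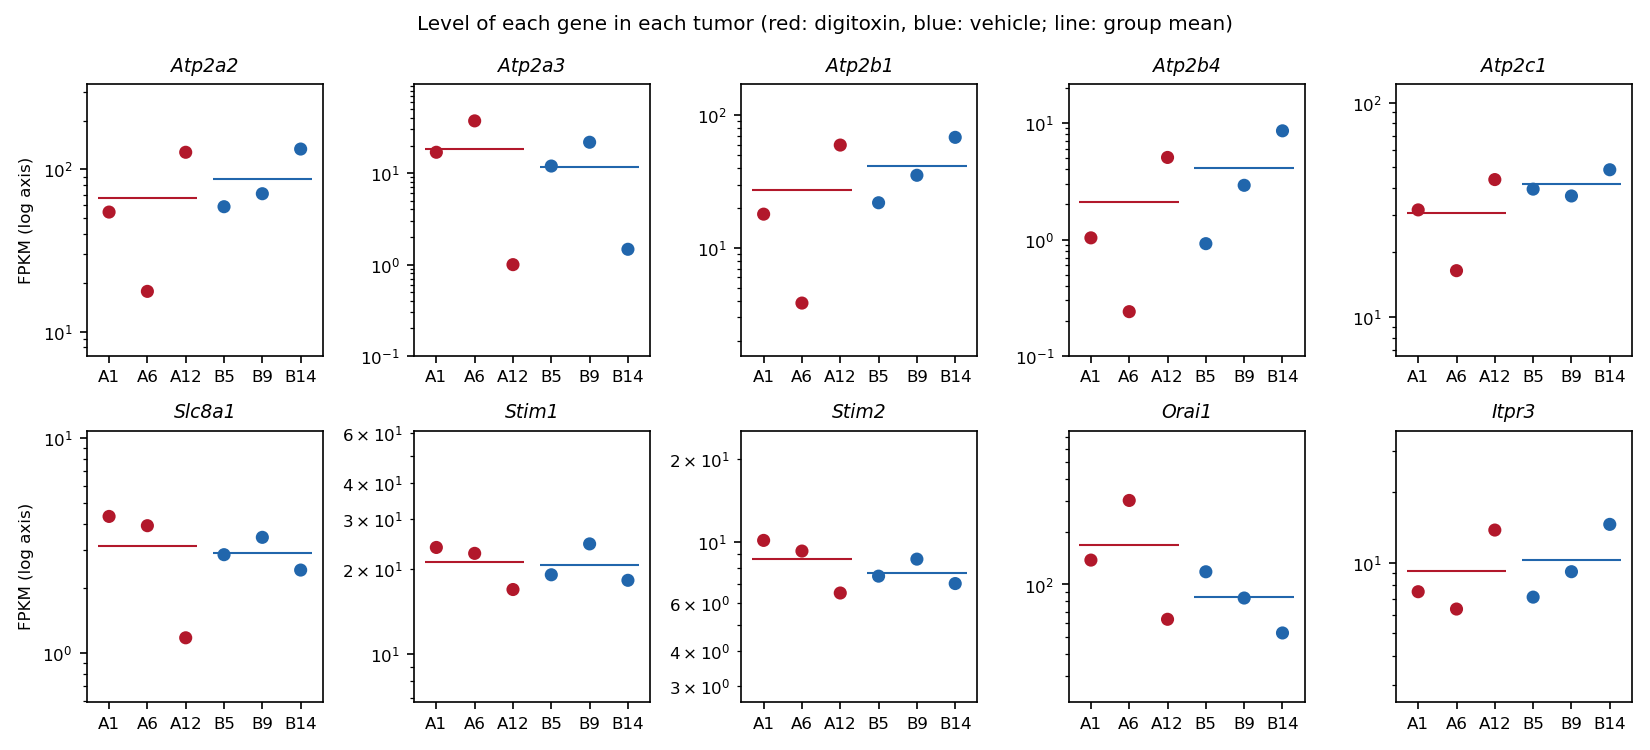
Level of each gene in FPKM (log axis) in the 3 digitoxin tumors (red) and the 3 vehicle tumors (blue), with a line at each group mean. A12 and B14 hold the 2 highest or the 2 lowest values in all 10 panels, and the groups overlap in each panel.

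Across the 6 tumors the order of mean levels per length was Orai1 (126 ± 92.3 FPKM, SD over 6 tumors), Atp2a2 (77.2 ± 45.0), Atp2c1 (36.1 ± 11.3), Atp2b1 (34.5 ± 25.0), Stim1 (20.8 ± 3.18), Atp2a3 (15.0 ± 13.7), Itpr3 (9.74 ± 3.55), Stim2 (8.18 ± 1.39), Atp2b4 (3.13 ± 3.20) and Slc8a1 (3.03 ± 1.14). Neighbours in this order differed by less than the larger of their SDs, except Stim2 and Atp2b4. The ratio of the highest to the lowest tumor had a median of 4.71 over the 10 genes. It was smallest for Stim1, at 1.45, and Stim2, at 1.55, and largest for Atp2b4, at 35.8, and Atp2a3, at 37.4.

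The store pump Atp2a2, SERCA2, which refills the endoplasmic reticulum in nearly all cells, had the highest mean FPKM of the pumps, though not in A6, and Atp2a3, SERCA3, which is known from platelets, lymphoid cells, endothelium and some epithelia, was low where it was highest. Atp2a2 (chr12:41434650-41482924 in the deposited coordinates) was 54.6 FPKM in A1, 17.7 in A6 and 128 in A12 with digitoxin, and with vehicle it was 58.9 in B5, 70.8 in B9 and 134 in B14. The high values were in 1 tumor of each group, and the lowest was the digitoxin tumor A6. The group means were 66.6 ± 55.9 and 87.7 ± 40.1 FPKM (SD, n = 3), and the log2 fold change was -0.70 (SE 0.72, 95% interval -2.46 to 1.05; limma adjusted p = 0.926). It was 0.020 without A6 and -1.37 without A12. Between tumors of the same replicate number, Atp2a2 was lower with digitoxin in all 3 pairs, as were 22.4% of all rows. The numbers are tied to no day or batch.

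Atp2a3 (chr10:59269278-59299899) was 16.9, 37.3 and 0.997 FPKM in A1, A6 and A12, and 11.9, 21.7 and 1.47 FPKM in B5, B9 and B14. The same pair of tumors that was highest for Atp2a2 was lowest for Atp2a3. The means were 18.4 ± 18.2 and 11.7 ± 10.1 FPKM, with a log2 fold change of 0.30 (SE 1.30, 95% interval -2.85 to 3.46; limma adjusted p = 0.968), which was -0.59 without A6, 1.54 without A12, -0.63 without B14 and -0.041 without A1. In A6 the 2 store pumps were nearest in level, with 0.475 FPKM of Atp2a2 for each FPKM of Atp2a3, whereas this ratio was 128 in A12 and 91.0 in B14. As a share of the summed FPKM of Atp2a1, Atp2a2 and Atp2a3, Atp2a3 was 23.5%, 67.7% and 0.774% in A1, A6 and A12, and 16.8%, 23.4% and 1.08% in B5, B9 and B14. This share is a ratio within a library and does not depend on the scaling between libraries. Atp2a1, the pump of fast skeletal muscle, was at most 0.674 FPKM. The 12 lung markers summed to 930 and 1855 FPKM in the tumors where Atp2a3 was near 1 FPKM, and to at least 76207 FPKM in the others. The 10 endothelial markers summed to 129 FPKM in A12 and 143 in B14, and to between 454 and 1885 FPKM in the others. The platelet markers found summed to 581.9, 278 and 1720 FPKM in A1, A6 and A12, and to 1541, 953 and 1564 FPKM in B5, B9 and B14, and in every tumor but A6 most of the sum was Ppbp. Without it the other 4 summed to 130, 278 and 67.9 FPKM in A1, A6 and A12, and to 132, 106 and 136 FPKM in B5, B9 and B14, most of it Pf4. The part of these tissues in the store pump levels was not tested.

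Promoter sequences are shown for the store pumps, which had opposite ends in A6, A12 and B14, and for Atp2b1, whose tumors stood in the order of those of Atp2a2. Each is the run of 250 bases before the annotated start in RefSeq, rat build GRCr8, read 5′ to 3′ on the gene's strand, which is the plus strand for all of them. The windows are chr12:39733269-39733518 for Atp2a2, chr10:58080402-58080651 for Atp2a3 and chr7:35622211-35622460 for Atp2b1, in GRCr8 and so not in the coordinates of the FPKM table. Capitals mark GC boxes (GGGCGG or, on the other strand, CCGCCC) and CCAAT boxes (CCAAT or ATTGG).
Atp2a2: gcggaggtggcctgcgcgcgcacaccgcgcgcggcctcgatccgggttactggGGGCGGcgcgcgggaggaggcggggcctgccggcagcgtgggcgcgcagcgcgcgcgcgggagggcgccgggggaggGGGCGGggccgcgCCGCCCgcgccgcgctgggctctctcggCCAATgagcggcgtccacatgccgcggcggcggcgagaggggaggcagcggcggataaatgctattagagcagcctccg
Atp2a3: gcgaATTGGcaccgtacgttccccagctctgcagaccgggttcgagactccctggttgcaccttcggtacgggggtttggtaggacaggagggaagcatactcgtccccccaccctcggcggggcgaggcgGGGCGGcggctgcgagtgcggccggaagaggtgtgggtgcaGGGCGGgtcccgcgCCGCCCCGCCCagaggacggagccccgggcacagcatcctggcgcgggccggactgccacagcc
Atp2b1: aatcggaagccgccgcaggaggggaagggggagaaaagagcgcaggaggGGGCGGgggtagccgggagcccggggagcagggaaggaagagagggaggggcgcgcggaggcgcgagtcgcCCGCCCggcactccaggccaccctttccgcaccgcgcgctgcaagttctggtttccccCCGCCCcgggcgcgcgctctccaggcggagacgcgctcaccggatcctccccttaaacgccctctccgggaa
The Atp2a2 window held 3 GC boxes and 1 CCAAT box, the Atp2a3 window 4 and 1, and the Atp2b1 window 3 and 0. Of the GC boxes of Atp2a3, the last pair overlap. All 10 genes matched the promoter table, 8 of the 10 windows held a GC box, beside 30.5% of 33469 rat promoters of the same length, and 6 held a CCAAT box, beside 34.0%. None of the 10 held TATAAA or TTTATA, beside 12.9% of all promoters. The G+C content was 80.0% for Atp2a2, 72.4% for Atp2a3 and 72.8% for Atp2b1, beside a median of 51.2%, and the windows of Atp2b4 (46.4%) and Slc8a1 (35.2%) held no GC box. These matches describe letters in a window and not sites in use.

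The plasma membrane pumps Atp2b1, PMCA1, which is widely expressed, and Atp2b4, PMCA4, had the log2 fold changes farthest below 0, neither past the test. Atp2b1 (chr7:41154016-41259749) was 17.99, 3.85 and 59.6 FPKM in A1, A6 and A12, and 21.9, 35.3 and 68.1 FPKM in B5, B9 and B14. The order of the tumors was the same as for Atp2a2, with A6 lowest and B14 highest. The means were 27.2 ± 29.0 and 41.8 ± 23.8 FPKM, and the log2 fold change was -1.12 (SE 0.94, 95% interval -3.40 to 1.15; limma adjusted p = 0.926). Without A12 it was -2.01, with an unadjusted p under 0.05 and a limma adjusted p of 0.251, and without A6 it was -0.19. Atp2b4 (chr13:55157901-55204205) was 1.03, 0.240 and 5.07 FPKM in the digitoxin tumors and 0.921, 2.92 and 8.58 FPKM in the vehicle tumors. It was high in A12 and B14, and the groups overlapped. Its log2 fold change was -0.75 (SE 0.81; limma adjusted p = 0.926), was -1.25 with 0.1 in place of 1 added to FPKM, and ran from -1.39 without A12 and -1.30 without B5 to -0.25 without A6 and -0.14 without B14. Atp2b1 supplied most of the family in every tumor, since Atp2b4 was between 4.03% and 11.2% of the summed FPKM of Atp2b1 to Atp2b4, and the other two family members, Atp2b2 and Atp2b3, were each at most 0.0315 FPKM. The fibroblast markers summed to 2878 FPKM in A12 and 4041 FPKM in B14, against 222 to 844 FPKM in the other tumors, and the cell division markers were lowest in A6, at 75.7 FPKM, beside 367 to 712 FPKM elsewhere. Their part in the pump levels was not tested.

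The Golgi pump Atp2c1, SPCA1, which loads calcium and manganese into the secretory pathway, had the smallest p of the 10 genes in the fit of all tumors without scaling or block. With median-of-ratios scaling, with the replicate block or without A12, the smallest was that of Orai1. Atp2c1 (chr8:113341076-113426614) was 31.5, 16.4 and 43.7 FPKM in A1, A6 and A12, and 39.4, 36.6 and 48.6 FPKM in B5, B9 and B14. Only A12 among the digitoxin tumors lay within the range of the vehicle tumors. The means were 30.6 ± 13.7 and 41.5 ± 6.24 FPKM, with a log2 fold change of -0.52 (SE 0.38, 95% interval -1.45 to 0.40; limma adjusted p = 0.926). It kept its sign without each tumor in turn, between -0.83 and -0.15. Its paralog Atp2c2, SPCA2, was 9.82, 10.5 and 7.89 FPKM with digitoxin and 5.63, 9.67 and 7.20 FPKM with vehicle, a log2 fold change of 0.31 (SE 0.31).

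The exchanger Slc8a1, NCX1, which trades sodium for calcium across the plasma membrane and is abundant in heart, had the lowest mean of the 10 genes, although Atp2b4 was below it in A1, A6, B5 and B9. Slc8a1 (chr6:4217554-4481756) was 4.32, 3.91 and 1.18 FPKM in A1, A6 and A12, and 2.87, 3.45 and 2.43 FPKM in B5, B9 and B14. A1 and A6 lay above all vehicle tumors and A12 below them. The means were 3.14 ± 1.71 and 2.92 ± 0.513 FPKM, and the log2 fold change was -0.018 (SE 0.44, 95% interval -1.09 to 1.05; limma adjusted p = 0.996). Its sign turned with the library left out, to 0.39 without A12 and 0.30 without A12 and B14. The paralogs Slc8a2 and Slc8a3 were each at most 0.143 FPKM. The cardiac markers summed to between 25.8 FPKM in A6 and 159 FPKM in A1, most of it Tnnt2 in all tumors but A6. The atrial Myl7 was 28.9 FPKM in A1 and at most 0.417 FPKM elsewhere. The part of these cells in the level of Slc8a1 was not tested.

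The store sensors varied least of the 10 genes, with highest-to-lowest ratios of 1.73 for Stim1 and 1.83 for Stim2 also after median-of-ratios scaling. Stim1 (chr1:173562501-173722020) was 23.7, 22.6 and 16.9 FPKM in A1, A6 and A12, and 19.0, 24.4 and 18.2 FPKM in B5, B9 and B14. Stim2 (chr14:59324132-59451210), the sensor of smaller falls in store calcium, was 10.1, 9.25 and 6.51 FPKM with digitoxin, and 7.50, 8.65 and 7.05 FPKM with vehicle. A12 and B14 were the lowest for both, by small margins. The log2 fold change was 0.032 for Stim1 (SE 0.26, 95% interval -0.59 to 0.66; limma adjusted p = 0.984) and 0.13 for Stim2 (SE 0.30, 95% interval -0.59 to 0.84; limma adjusted p = 0.949), and with 1 tumor left out that of Stim2 ran from 0.011 without A1 to 0.29 without A12. These intervals are the narrowest of the 10 and leave room for a change of either sign. Stim2 was 28.9% ± 1.02 of the summed Stim1 and Stim2 FPKM with digitoxin and 27.5% ± 1.15 with vehicle (SD, n = 3), with overlapping groups.

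**Figure D2:**
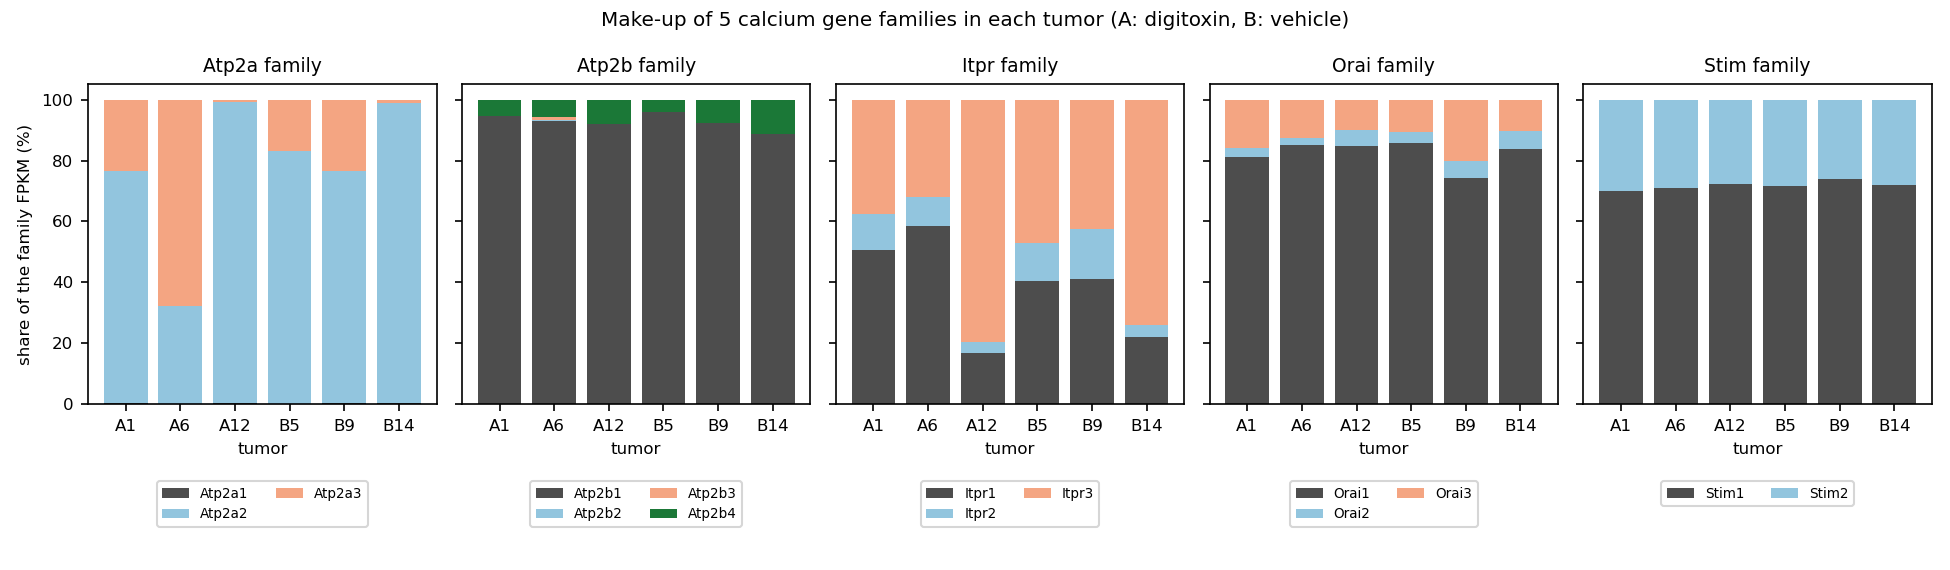
Share of each gene in the summed FPKM of its family (%) in each tumor, A with digitoxin and B with vehicle. The Stim bars are nearly level, whereas Atp2a3 runs from 0.774% to 67.7% and Itpr3 from 31.9% to 79.4%.

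Orai1, the pore of store-operated entry, had the highest mean FPKM of the 10 genes and the log2 fold change farthest above 0, which did not pass the test. Orai1 (chr12:40878295-40879065) was 138, 303 and 63.2 FPKM in A1, A6 and A12, and 118, 83.6 and 52.7 FPKM in B5, B9 and B14. A1 and A6 lay above all vehicle tumors, and A12 lay within them. The means were 168 ± 123 and 84.9 ± 32.8 FPKM, a ratio of 1.98, and the log2 fold change was 0.77 (SE 0.61, 95% interval -0.69 to 2.24; limma adjusted p = 0.926). It was 1.33 without A12 (limma adjusted p = 0.251), 1.03 without A12 and B14 (limma adjusted p = 0.390) and 0.21 without A6, and the unadjusted p was under 0.05 in the fits without A12. The table gives this gene a span of 771 bases, so its FPKM rests on a short model and its level beside that of other genes depends on that length. Orai1 was between 74.3% and 85.8% of the summed FPKM of Orai1 to Orai3. Orai3 followed the same order of high and low tumors in part, at 27.1, 44.5 and 7.39 FPKM with digitoxin and 14.5, 22.5 and 6.45 FPKM with vehicle. Orai2 was between 3.82 and 7.91 FPKM. The 14 leukocyte markers summed to 63746 FPKM in A6, where Orai1 was highest, and to 1586 FPKM in A12 and 3834 FPKM in B14, where it was lowest, but most of each sum was the neutrophil pair S100a8 and S100a9. The other 12 summed to 1116, 1385 and 314 FPKM in A1, A6 and A12, and to 985, 958 and 571 FPKM in B5, B9 and B14. Among them, Ptprc, the pan-leukocyte CD45, was 32.2 FPKM in A6 and higher in A1, B5 and B9, at 37.8 to 49.6 FPKM. The part of leukocytes in the level of Orai1 was not tested.

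**Figure D3:**
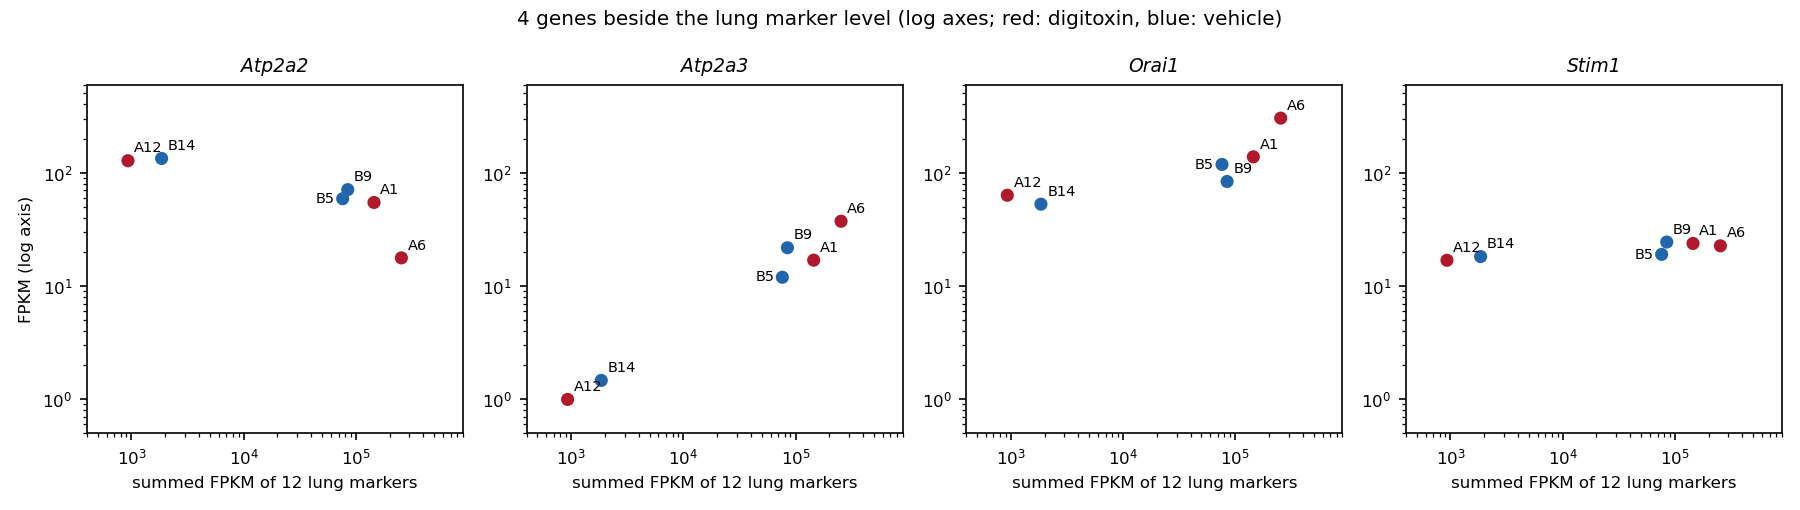
FPKM of 4 genes (log axis) beside the summed FPKM of 12 lung markers (log axis), 1 point per tumor, red for digitoxin and blue for vehicle. A12 and B14 stand apart at 930 and 1855 FPKM of markers, with the 2 highest values of Atp2a2 and the 2 lowest of Atp2a3 and Orai1.

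Itpr3, the type 3 inositol trisphosphate receptor of the store membrane, common in secretory epithelia, made up a different share of its family in different tumors while the family sum moved little. Itpr3 (chr20:7711507-7775357) was 7.51, 6.34 and 13.8 FPKM in A1, A6 and A12, and 7.12, 9.14 and 14.5 FPKM in B5, B9 and B14. The 2 high tumors were again A12 and B14. The log2 fold change was -0.16 (SE 0.41, 95% interval -1.16 to 0.84; limma adjusted p = 0.9505). Itpr1 was 10.2, 11.6 and 2.91 FPKM with digitoxin and 6.11, 8.80 and 4.31 FPKM with vehicle, so that its 2 lowest tumors were those where Itpr3 was highest. The summed FPKM of Itpr1 to Itpr3 stayed between 15.1 and 21.5. Itpr3 was 37.4%, 31.9% and 79.4% of it in A1, A6 and A12, and 47.2%, 42.5% and 73.9% in B5, B9 and B14.

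All 10 genes had A12 and B14 together at one end. In Atp2a2, Atp2b1, Atp2b4, Atp2c1 and Itpr3 these tumors held the 2 highest values, and in Atp2a3, Slc8a1, Stim1, Stim2 and Orai1 the 2 lowest, with or without median-of-ratios scaling. The same held for 59.4% of all rows, 30.1% with both highest and 29.3% with both lowest. A6 was the lowest tumor in 5 of the 10 genes, beside 50.4% of all rows. The range of log2(FPKM + 1) over the 6 tumors had a median of 2.005 for the 10 genes and 1.35 for all rows.

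The counts depended on A12. Without A12, 6 of the 10 genes (Atp2a2, Atp2b1, Atp2c1, Slc8a1, Stim2 and Orai1) had groups that did not overlap, beside 50.8% of all rows, and Atp2b1 and Orai1 had an unadjusted limma p under 0.05, beside 19.7% of all rows. Their smallest adjusted p was 0.251. Without A12 and B14, the same 6 genes did not overlap, beside 57.2% of all rows, and 1 gene, Orai1, had an unadjusted p under 0.05, beside 11.1%. The smallest adjusted p was then 0.390. Without A1 and B9, none of the 10 had an unadjusted limma p under 0.05 and no sign turned. Scaling the libraries by the median of ratios moved the median log2 fold change of the whole table up by 0.18 and turned Slc8a1 and Itpr3 to values above 0, so that 4 of the 10 genes were lower and the median of the 10 was 0.078, beside 48.5% of all rows lower and a median of 0.018.

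**Figure D4:**
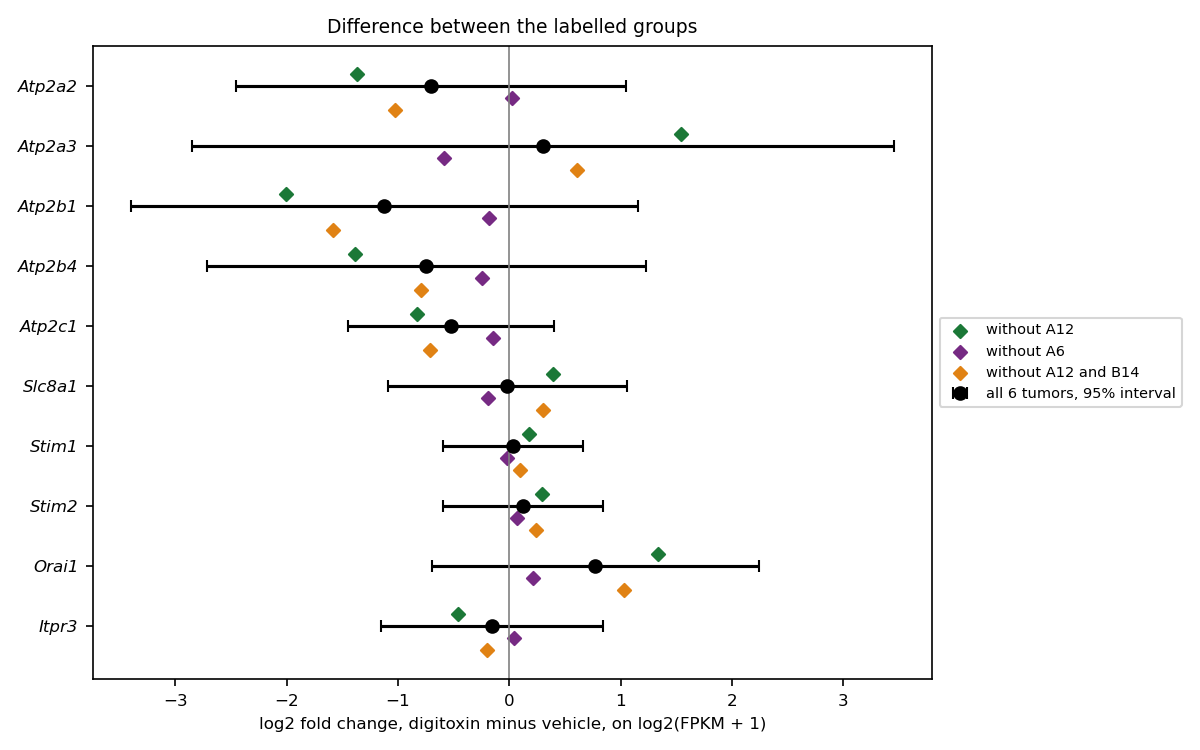
Log2 fold change of each gene, digitoxin minus vehicle, on log2(FPKM + 1), with its 95% interval (black), and without A12 (green), A6 (purple) or both A12 and B14 (orange). All 10 intervals include 0, and for Atp2a3 the value lies at -0.59 without A6 and 1.54 without A12.

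A further 68 genes of calcium handling in 8 lists were read from the same fit. The table held 63 of them, and 49 passed the filter on low levels. Among the 49, the mean log2 level with digitoxin was lower in 34 and higher in 15, beside 64.9% lower among all rows, with a median fold change of -0.18 on that scale, beside -0.16, and 0 had an adjusted or unadjusted limma p under 0.05 (smallest unadjusted p = 0.130). Their groups overlapped in all 49, beside 4.16% of all rows without overlap. With median-of-ratios scaling, 25 were lower and 24 higher, beside 48.5% of all rows lower, with a median of -0.037 and again 0 at an unadjusted p under 0.05. Without A12, 11 of them had an unadjusted p under 0.05, beside the 19.7% of all rows given above, and without A12 and B14 there were 4, beside 11.1% of all rows. The counts of lower and higher genes in each list below were made on all 6 tumors and are to be read against the 64.9% of all rows that were lower as deposited, or 48.5% where median-of-ratios scaling is named.

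Among calcium exchangers, Slc24a3 and Slc24a4, potassium-dependent exchangers, followed Atp2a3 in their low tumors. Slc24a3 was 11.5, 15.8 and 0.332 FPKM in A1, A6 and A12, and 4.50, 9.40 and 0.371 FPKM in B5, B9 and B14. The mitochondrial exchanger Slc8b1, listed as Slc24a6, was steady at 13.1 to 17.7 FPKM. All 3 tested exchangers had a higher mean log2 level with digitoxin and none passed the test.

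Of 6 tested genes of store-operated entry, 2 were lower and 4 higher, with a median log2 fold change of 0.17. With median-of-ratios scaling the counts were the same and the median was 0.36. Saraf, listed as Tmem66, a brake on the STIM sensors, was 126, 193 and 104 FPKM with digitoxin and 113, 114 and 98.1 FPKM with vehicle, with the high value in A6. Stimate, listed as Tmem110, which aids the contact of STIM with ORAI, was between 23.6 and 58.7 FPKM. Of 6 store release genes, 5 were lower and 1 higher (median -0.22), or 4 and 2 with median-of-ratios scaling (median -0.047). Tmbim6, a store membrane protein that lowers store calcium, was 397, 315 and 579 FPKM with digitoxin and 427, 507 and 565 FPKM with vehicle. Erp44, which binds the type 1 receptor from the store lumen, ran from 57.3 to 104 FPKM. The ryanodine receptor Ryr2 was at most 0.0475 FPKM.

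The partners of the pumps were abundant. Bsg, which with Nptn is an obligate subunit of the plasma membrane pumps, was between 682 and 935 FPKM, and Nptn was 140, 83.6 and 193 FPKM with digitoxin and 173, 132 and 209 FPKM with vehicle. Nptn was lowest in A6 and highest in B14, as were both of the plasma membrane pumps. The store pump inhibitor Sln was 7.80 FPKM in A1, 1.04 FPKM in B14 and listed at 0 in the other tumors, and Pln was at most 1.18 FPKM.

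In the store lumen, 9 of 11 tested calcium-binding proteins had A12 and B14 as their 2 highest tumors, as Atp2a2 did. The same held for 30.1% of all rows. Calr, the main calcium buffer of the store, was 629, 548 and 1049 FPKM in A1, A6 and A12, and 675, 635 and 1027 FPKM in B5, B9 and B14. Pdia3, a folding enzyme of the store that partners with calreticulin, was between 444 and 589 FPKM. The list had 9 lower and 2 higher genes with a median log2 fold change of -0.14. With median-of-ratios scaling it had 5 lower and 6 higher, with a median of 0.056. Its value farthest above 0 was that of Rcn3, at 0.73 (SE 0.42; limma adjusted p = 0.926), with 57.5, 26.2 and 44.2 FPKM with digitoxin and 19.1, 18.7 and 39.0 FPKM with vehicle, a gene named here after its values were seen.

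All 5 tested genes of mitochondrial calcium uptake had a lower mean log2 level with digitoxin, with a median fold change of -0.58, none past the test, and 4 of the 5 with median-of-ratios scaling (median -0.39). Mcu, the uniporter pore, was 17.1, 1.85 and 52.5 FPKM in A1, A6 and A12, and 26.7, 31.5 and 60.6 FPKM in B5, B9 and B14, which is the order of tumors seen for Atp2b1. The outer membrane channel Vdac1 was between 39.8 and 135 FPKM. Of the 14 genes of calmodulin, calcineurin and NFAT, which read the calcium signal, 12 were lower and 2 higher (median -0.41), and with median-of-ratios scaling 9 were lower and 5 higher (median -0.21). Calm3, a calmodulin gene, was between 262 and 382 FPKM.

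**Figure D5:**
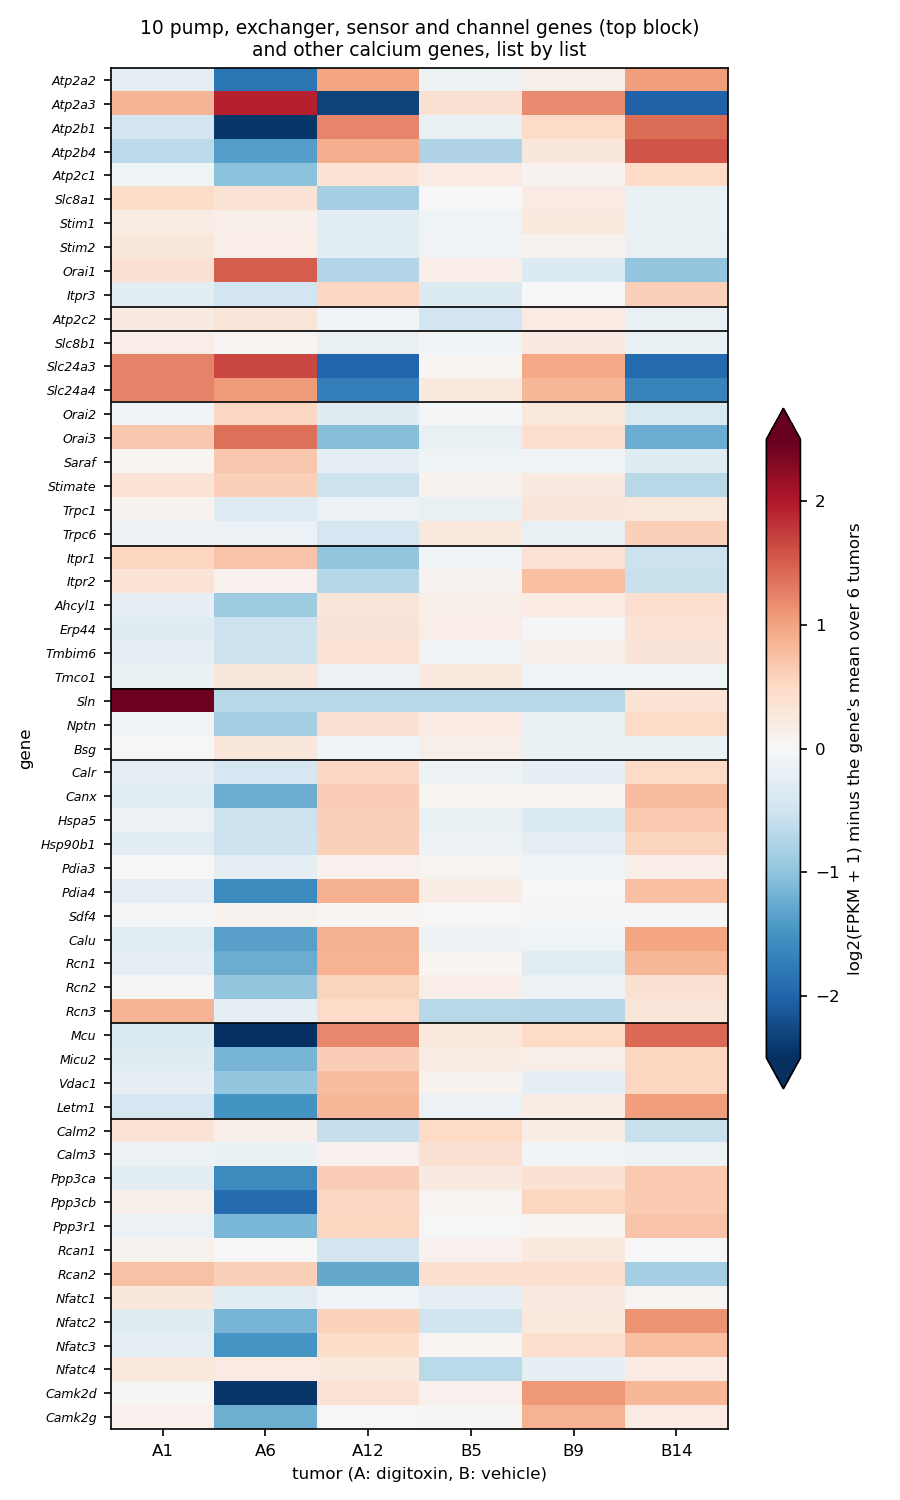
Log2(FPKM + 1) of each gene minus its mean over the 6 tumors (colour, red above and blue below the mean; values past the ends of the scale take the end colour), by tumor. The 10 genes stand in the top block and others of the calcium lists stand list by list below, and A12 and B14 share their colour in most lines.

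For the 3 genes with the widest range over the tumors, the rows of the table with the most similar pattern were sought by the root mean square difference over the 6 tumors, each row's mean log2(FPKM + 1) subtracted. Nearest to Atp2a3 were Icam2 (0.129), Gzmm (0.167) and Glod5 (0.188). Icam2, an adhesion protein of endothelium and leukocytes, was 71.5, 148 and 6.87 FPKM in A1, A6 and A12, and 42.3, 71.3 and 8.22 FPKM in B5, B9 and B14. Nearest to Atp2b1 were Slmap (0.0996), Atic (0.102) and Fam126a (0.109), and nearest to Atp2b4 were the transcription factor genes Nfib (0.133) and Klf7 (0.169), and Ccnt1 (0.183).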

How the data were processed

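Messenger RNA libraries, 1 per tumor, were made with TruSeq RNA v2 and read on a Genome Analyzer IIx by the authors, who aligned reads with Bowtie 2 and TopHat 2 and deposited FPKM from Cufflinks 2. Their processing notes list hg19, a human build, but the table holds rat chromosomes, and the rat build is not given in the sources used here. Cuffdiff, used in the study, needs the reads and was not repeated.

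Groups were taken from the labels. Values were computed with Python 3.11.15, pandas 2.3.3 and numpy 2.4.6 and drawn with matplotlib 3.10.9. Rows averaging 1 FPKM or more were tested between groups in R 4.3.3 by limma 3.58.1 (lmFit, eBayes with a trend) on log2(FPKM + 1), two-sided, with Benjamini-Hochberg adjustment over all 10749 rows; this scale understates changes of low mRNAs. The sums of FPKM ran from 651322 to 1025231 per library, 12148 to 13503 rows were above 0, and the 10 largest rows took 9.24% to 36.3%. Low values showed no common step (at most 2.44% of rows at the most frequent ratio), so depth could not be recovered and no counting interval is given.

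The genes and lists were chosen with earlier results of these data known. Named genes are the 10 genes, their family isoforms, the 2 most abundant genes of each calcium list, and the 3 rows nearest to each of the 3 widest-ranging genes. Other genes were named after their values were seen. The marker sums without single genes and the counts over same-numbered pairs were also added then. Some results on single genes are not reported here, and those genes are left out of the heat map. On simulated data for the comparison of digitoxin with vehicle (10749 rows), 200 genes were given a log2 change of 4, of which 149 passed in the simulated direction, and 10 unchanged rows passed too. Deviations from the group means correlated at 0.426, 0.606 and 0.869 between same-numbered tumors, so the fit with replicate number as a block was also made. The numbers come from the labels, which do not tie a number to a day or batch, and other pairs, A1 with B9 (0.644) and A6 with B5 (0.612), were as close. Fits were repeated with the block, without a trend in eBayes, with median-of-ratios scaling, unfiltered, with 0.1 added in place of 1, and with tumors left out.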

Additional observations from a re-analysis of the deposited data

How the results depend on the processing

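No gene of the 10 passed the adjusted threshold under any alternative. Of the values for single genes, 115 kept their direction and 15 reversed. With median-of-ratios scaling Slc8a1 turned to 0.14 and Itpr3 to 0.015, and without A12 and B14 Slc8a1 turned to 0.30 (log2 fold changes). Over the fits that each left out 1 tumor, the log2 fold change ran from -1.37 to 0.020 for Atp2a2, -0.63 to 1.54 for Atp2a3, -0.057 to 0.18 for Stim1, -0.46 to 0.10 for Itpr3 and -0.25 to 0.39 for Slc8a1, and without a change of sign from -1.39 to -0.14 for Atp2b4, -2.01 to -0.19 for Atp2b1, 0.21 to 1.33 for Orai1 and 0.011 to 0.29 for Stim2; the cause was not tested. With 1 tumor left out, rows past the adjusted threshold numbered 0 to 2 (2 without B14), genes of the 10 whose groups did not overlap 0 to 6 and with an unadjusted limma p under 0.05 0 to 2, and genes of the calcium lists with such a p 0 to 11. Without A12 and B14 these were 2, 6, 1 and 4, beside 57.2% of all rows without overlap and 11.1% with such a p. The upper ends for the genes came without A12, beside 50.8% and 19.7% of all rows. A fit that leaves out 1 tumor compares 2 with 3. The median log2 fold change of the 10 ran from -0.20 to -0.065 with 1 tumor left out. The difference in the Stim2 share of Stim1 and Stim2, 1.46 percentage points, was 0.325 without A1 and B9. With the replicate number as a block, no call changed, and the smallest unadjusted limma p of the 10 was 0.0731, for Orai1 (smallest adjusted p = 0.638). A pseudocount of 0.1, no filter and eBayes without a trend reversed none of the 10, though the pseudocount moved Atp2b4 from -0.75 to -1.25. Depth is unknown, so the precision of low FPKM, such as those of Atp2b4 and Slc8a1, cannot be given, and a missed threshold does not show equal levels.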
